A study of Homo sapiens with 4 samples.

Results

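A set of 10 neuroblastoma genes was followed through 4 nucleosome maps of BE(2)C cells. They are 10 of the 38864 protein-coding and long noncoding RNA genes whose start sites were measured, and were taken by name as genes known for inherited risk, somatic mutation or copy change in this tumour: ALK, PTPN11, NF1, LIN28B, TERT, LMO1, BARD1, HACE1, KIF1B and CASC15. BE(2)C is an established human neuroblastoma line that carries an amplified MYCN gene. The 2 control libraries (ctrl, genotype wild type in the labels) and the 2 knockdown libraries (kd, N-myc kd) came from cells given siRNA with Lipofectamine 2000. The labels give its concentration as 80 nM. The study's methods state a lower final concentration, so the dose is uncertain. Micrococcal nuclease cuts the DNA between nucleosomes, and the protected fragments were sequenced as read pairs. Each library is a list of 147-bp nucleosomes with at least 6 read pairs, each with its position, its number of reads and its fuzziness, the SD in bp of the read midpoints around the nucleosome centre (dyad). All 4 libraries are of the same line, so the level of a gene in them is that of BE(2)C and not of neuroblastoma in general.

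Neuroblastoma arises from cells of the developing sympathetic nervous system. ALK is a receptor tyrosine kinase that signals to RAS through the phosphatase SHP2, the product of PTPN11, and NF1 encodes neurofibromin, which switches RAS off. LIN28B blocks the maturation of let-7 microRNAs, TERT is the catalytic subunit of telomerase, LMO1 is a cofactor of transcription factors, BARD1 is the partner of BRCA1 in DNA repair, HACE1 is a ubiquitin ligase, KIF1B is a kinesin motor, and CASC15 is a long noncoding RNA at a risk locus. Active promoters often hold a stretch free of nucleosomes just upstream of the start site, and MYC family proteins bind the DNA word CACGTG, the canonical E-box.

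The lists held 10527010 to 12178724 nucleosomes and 147370973 to 242544884 reads per library. Replicate 2 of each group was the deeper, with a median of 18 reads per nucleosome against 12 in replicate 1. A nucleosome absent from a list may therefore have had fewer than 6 reads, more often so in replicate 1 and in genes of low level. Nothing in the labels says that the replicates came from separate cultures, so the spread between them may be technical. Nucleosome lists carry no measure of MYCN transcript or protein, and the knockdown could not be checked in them.

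The sequence just upstream of the start site was read from GRCh37 for 5 of the genes. TERT and LIN28B are shown because they were the members with CACGTG between 200 bp upstream and 50 bp downstream of the start site. NF1 and KIF1B are shown because that window counted as empty in every library, under the definition given below. HACE1 is shown because its window held a nucleosome in every library under the same definition. Each runs 5′ to 3′ on the strand of the gene from 200 bp upstream to the base before the start site, except that NF1 ends 51 bp before it, where an annotated untranslated region begins. Capitals mark CACGTG.
TERT, chr5:1295184-1295383, minus strand: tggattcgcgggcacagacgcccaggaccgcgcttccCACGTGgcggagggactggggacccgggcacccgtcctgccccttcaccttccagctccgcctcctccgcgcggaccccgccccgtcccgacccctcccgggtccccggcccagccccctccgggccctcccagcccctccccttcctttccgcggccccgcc
LIN28B, chr6:105404782-105404981, plus strand: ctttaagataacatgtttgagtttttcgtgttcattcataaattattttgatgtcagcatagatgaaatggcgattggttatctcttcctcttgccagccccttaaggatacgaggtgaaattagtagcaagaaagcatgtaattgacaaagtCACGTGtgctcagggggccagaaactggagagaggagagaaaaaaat
NF1, chr17:29421795-29421944, plus strand: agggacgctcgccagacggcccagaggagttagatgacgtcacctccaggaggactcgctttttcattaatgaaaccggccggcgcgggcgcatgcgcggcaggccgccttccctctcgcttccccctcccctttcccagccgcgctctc
KIF1B, chr1:10270428-10270627, plus strand: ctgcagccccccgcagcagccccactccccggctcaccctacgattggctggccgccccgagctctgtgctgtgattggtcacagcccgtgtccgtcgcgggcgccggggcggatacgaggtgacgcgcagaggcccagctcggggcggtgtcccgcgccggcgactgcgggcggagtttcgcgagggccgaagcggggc
HACE1, chr6:105307795-105307994, minus strand: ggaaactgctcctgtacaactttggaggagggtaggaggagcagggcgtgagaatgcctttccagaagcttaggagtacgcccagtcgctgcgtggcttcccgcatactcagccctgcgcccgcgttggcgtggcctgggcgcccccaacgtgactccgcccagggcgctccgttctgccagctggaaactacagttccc

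The TERT stretch had a GC content of 78%, and that of LIN28B 39%. CACGTG, which reads the same on both strands, was found in the 251-bp window around the start of 2 of the 10 members, and in 6.38% of the windows of all genes. TERT held 2 copies, with first bases at -163 and 45 bp from the start site, and LIN28B held 1, at -47 bp. PTPN11 held 1 in its promoter, 718 bp downstream of the start site. The other 7 members had none between 2 kb before and 1 kb after the start, a span that held the word in 34.7% of all genes. These matches are letters in the reference and not sites of binding.

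The upstream CACGTG of TERT lay within a listed nucleosome in 1 of the 4 libraries. In ctrl replicate 1 the nearest dyad was at -104 with 11 reads, and its 147 bp reached over the motif. The nearest dyad was at -260 in ctrl replicate 2, at -249 in kd replicate 1 and at -64 in kd replicate 2, and none of these covered it. No listed nucleosome reached over the whole downstream copy in any of the 4 libraries. The +1 nucleosome followed it, with dyads at 136, 123, 130 and 127 bp (ctrl replicates 1 and 2, kd replicates 1 and 2). In ctrl replicate 2 the edge of that nucleosome fell on the last base of the motif. The LIN28B motif was covered in ctrl replicate 2 and kd replicate 1, by a nucleosome with its dyad at 21 bp in both, with 13 and 6 reads. It was not covered in ctrl replicate 1 or kd replicate 2, so that each group held 1 library with the motif covered and 1 without.

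The first question was whether knockdown moved a nucleosome into or out of the start-site window, from 200 bp upstream to 50 bp downstream. A window was taken as empty when no listed nucleosome lay at least 80% inside it, the definition of the nucleosome-free region in the study's methods. At the canonical start sites, the state of the window separated the groups in none of the 10 genes. No member was empty in both ctrl libraries and held in both kd libraries, a pattern of 2.55% of the 38708 genes with reads near the start site in all libraries, and none showed the opposite, a pattern of 2.75%. Per library, 5, 5, 7 and 6 of the 10 members were empty (ctrl replicates 1 and 2, kd replicates 1 and 2). The shares over all genes were 49.4%, 43.9%, 50.6% and 43.6% in the same order, so the counts of members are not read as a change.

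LIN28B, LMO1, NF1 and KIF1B had empty windows in all 4 libraries, which was true of 22.3% of all genes. The gap between the dyads on either side of the start site was 952 and 539 bp in ctrl replicates 1 and 2 and 1051 and 557 bp in kd replicates 1 and 2 in LMO1. In KIF1B it was 494, 464, 717 and 410 bp in the same order. In NF1 it was 584, 326, 720 and 682 bp, wider than in LMO1 in kd replicate 2, and the smallest of these came from a nucleosome with its dyad at 15 bp in ctrl replicate 2. LMO1 and NF1 do not share base composition with LIN28B, whose window had a GC content of 39.4% against 58.6% and 65.7% in those genes and 75.3% in KIF1B. The gap at LIN28B was 361, 182, 428 and 247 bp, and under a laxer definition (50% of the nucleosome inside, or its dyad inside) LIN28B and NF1 no longer counted as empty in every library, whereas LMO1 and KIF1B did.

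These 4 genes also had the fewest reads within 2 kb of the start site, 561 to 704 summed over the libraries, against 1021 to 1435 in the other 6. Among all genes with reads in the range of the 4, 32.2% of windows were empty in all libraries, and among those in the range of the 6, 23% were. The 4 are protein-coding, and among protein-coding genes alone these shares were 44.5% and 33.7%. The part of low read number in their empty windows was not tested further.

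TERT and HACE1 held a nucleosome in the window in all 4 libraries, as did 25.4% of all genes. The TERT window had 11, 15, 7 and 10 reads, in the order ctrl replicates 1 and 2, kd replicates 1 and 2. The HACE1 window had 11, 18, 7 and 17 reads. In both genes the lowest number was in kd replicate 1. The HACE1 values overlapped between groups, and those of TERT were lower in both kd libraries, by 0.57 on the log2 scale when reads of this window alone were fitted, a difference that did not pass the test (edgeR, adjusted p = 0.9997).

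The other 4 windows varied between libraries without following the group. ALK held 6, 10 and 7 reads and was empty in kd replicate 1 alone, where the dyads on either side lay 577 bp apart. BARD1 was empty in replicate 1 of both groups and held 6 and 22 reads in the deeper replicate 2 of ctrl and kd. PTPN11 held 6 reads, the smallest number that is listed, in ctrl replicate 1 alone. CASC15 held 14, 12 and 14 reads and was empty in kd replicate 2, where a nucleosome with its dyad at -167 lay just too far upstream to count.

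**Figure D1:**
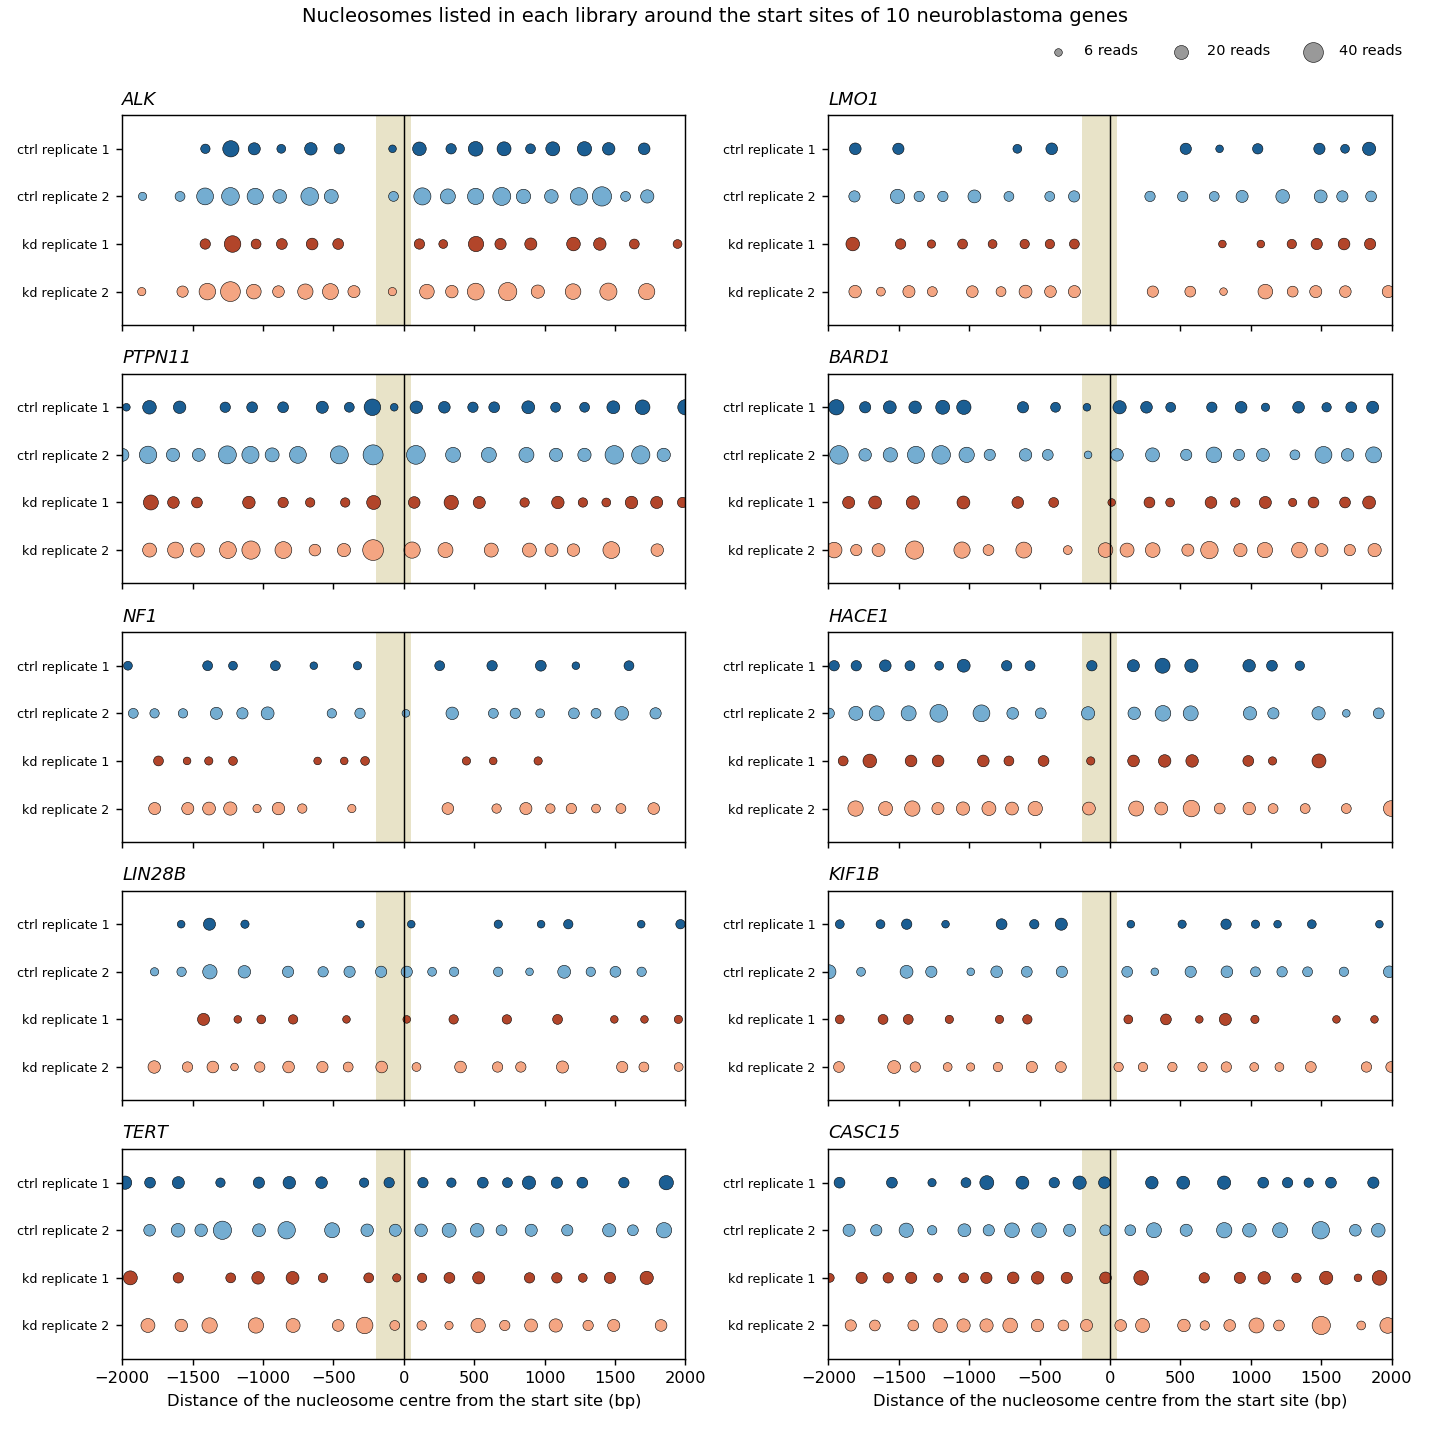
Nucleosomes within 2 kb of the start site of each gene, plotted at the distance of the centre from the start site in bp, with 1 row per library (blue ctrl, red kd) and the circle area proportional to reads. The shaded window runs from 200 bp upstream to 50 bp downstream. LMO1 and KIF1B show a gap there in all 4 rows, and the nucleosomes of HACE1 downstream of the start site line up between rows.

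The second question was how closely the libraries placed the same nucleosomes. A nucleosome was counted as shared when all 4 libraries listed a dyad within a span of at most 40 bp. HACE1 had 8 shared nucleosomes of a mean of 16 listed within 2 kb of the start, and 89.8% of genes had fewer. Of these, 5 lay downstream of the start. The first dyad lay at 166, 172, 167 and 186 bp in ctrl replicates 1 and 2 and kd replicates 1 and 2. The second lay at 373, 376, 388 and 364 bp, and the third at 578, 573, 583 and 578 bp. A further pair followed, with mean positions of 988 and 1156 bp, each within a span of 12 bp or less.

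TERT had 7 shared nucleosomes, more than 82.9% of genes had. Its +1 nucleosome had dyads between 123 and 136 bp, the second between 321 and 338 bp and the third between 521 and 561 bp. The start of TERT was thus flanked by shared nucleosomes although a further one was listed over the window in each library, at dyads of -104, -60, -50 and -64 bp. 

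ALK, BARD1 and PTPN11 had 5 shared nucleosomes each, LMO1 4, KIF1B 3, CASC15 2 and LIN28B and NF1 1 each. The median over all genes was 4 (quartiles 2 and 6). A shared nucleosome needs at least 6 reads in every library. Of all genes, 5.79% had fewer reads around the start than LIN28B, 5.39% than NF1, 8.52% than KIF1B and 13.9% than LMO1. For CASC15 the share was 49.4%. The part of read number in these counts was not tested. The tightest shared nucleosome was in ALK, 511 bp downstream of the start within its first exon. Its 4 dyads spanned 3 bp and had 22, 27, 24 and 29 reads. ALK also had a nucleosome at a mean of -1226.5 bp, with 27, 32, 28 and 40 reads. PTPN11 carried its tightest shared nucleosome at a mean of -218 bp, with 28, 41, 20 and 44 reads and a span of 9 bp, over an exon of an alternative RPL6 transcript annotated there. It had the most reads around the start in every library but kd replicate 1, where one at -1796 bp had 23. RPL6 encodes a protein of the large ribosomal subunit. In all 3 of these nucleosomes replicate 2 had more reads than replicate 1 in each group.

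Dyads around the 10 start sites lay about as far apart between groups as between replicates. Nucleosomes of 2 libraries were paired where each was the nearest to the other and their dyads lay less than 147 bp apart. Those without such a partner were left out. The median distance was 19 bp between the ctrl replicates, 24 bp between the kd replicates, and 20 to 25 bp between ctrl and kd libraries. Between groups minus within groups this came to 0.375 bp (one-sided exact permutation test over the 3 ways to split 4 libraries in pairs, p = 0.667, smallest possible 0.333). By gene, the distance between ctrl and kd was shortest in HACE1, at 9.63 bp against 14.5 bp between replicates, and longest in CASC15, at 40.4 bp against 33.0 bp.

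The mean fuzziness of the nucleosomes within 2 kb of the member start sites was 32.3 and 35.9 bp in ctrl replicates 1 and 2 and 33.3 and 35.2 bp in kd replicates 1 and 2. The value was higher in the deeper replicate 2 of both groups. The kd mean exceeded the ctrl mean by 0.154 bp, less than the SD of 2.55 bp between the ctrl replicates (two-sided exact permutation test over 6 arrangements, p = 1.0). Over all genes the difference was -0.0309 bp.

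The read pattern around the start was compared between members in 80 steps of 50 bp, summed over the libraries. ALK and CASC15 were the most alike (Pearson r = 0.35) and TERT and NF1 the least (r = -0.17). These are correlations along the sequence, whose steps share libraries and depth.

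The third question was whether knockdown changed the number of nucleosome reads over the promoters, which span 2 kb before and 1 kb after the start. None of the 10 promoters passed the test (edgeR quasi-likelihood test, adjusted p = 0.99998 for each, 0% of 38713 promoters called). Log2 changes of kd against ctrl ran from -0.23 in TERT to 0.19 in LIN28B, with a median of -0.03 against 0.00 over all promoters. Without adjustment 0 of 10 members and 1293 promoters, or 3.34%, had p under 0.05, and DESeq2 likewise called none after adjustment.

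The 2 members whose kd and ctrl values did not overlap were TERT and PTPN11, both lower in kd, and 30.6% of all promoters did not overlap. TERT had 26.6 and 24.7 CPM (promoter reads scaled to a common library total) in ctrl replicates 1 and 2 and 22.7 and 20.9 in kd replicates 1 and 2, a log2 change of -0.23 ± 0.15 (SE). PTPN11 had 30.8 and 34.6 CPM in ctrl and 26.7 and 30.7 in kd, a change of -0.19 ± 0.14. Neither change passed the test.

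BARD1 had 31.1 and 27.3 CPM in ctrl and 21.6 and 27.5 in kd, so that its log2 change of -0.22 ± 0.15 rested on replicate 1. LIN28B had 8.0 and 13.7 CPM in ctrl and 10.5 and 14.5 in kd, and LMO1 10.2 and 14.1 in ctrl and 13.7 and 14.2 in kd. Their log2 changes of 0.19 ± 0.30 and 0.18 ± 0.25 had wide errors, and both came from the low ctrl replicate 1. Without that library the change was -0.11 in LIN28B and -0.02 in LMO1.

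The other members moved less. ALK had 26.1 and 29.6 CPM in ctrl and 24.4 and 29.8 in kd (log2 change -0.03 ± 0.14), and NF1 12.3 and 13.3 in ctrl and 10.9 and 13.5 in kd (-0.06 ± 0.27). KIF1B had 14.0 and 13.7 CPM in ctrl and 14.2 and 12.9 in kd (-0.03 ± 0.24). HACE1 and CASC15, at 21.98 to 27.6 CPM in all libraries, had changes of -0.01 ± 0.14 and 0.00 ± 0.15. The 4 genes with empty windows had 8.0 to 14.5 CPM and the other 6 had 20.9 to 34.6, over windows of the same length. CPM were not corrected for the read level of the surrounding sequence, defined below. On the GC-matched scale the bodies of NF1, KIF1B and LMO1 had 0.552, 0.550 and 0.547, and that of LIN28B 0.852. The other 6 had 0.842 to 1.25. The part of this level in the promoter reads was not tested.

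**Figure D2:**
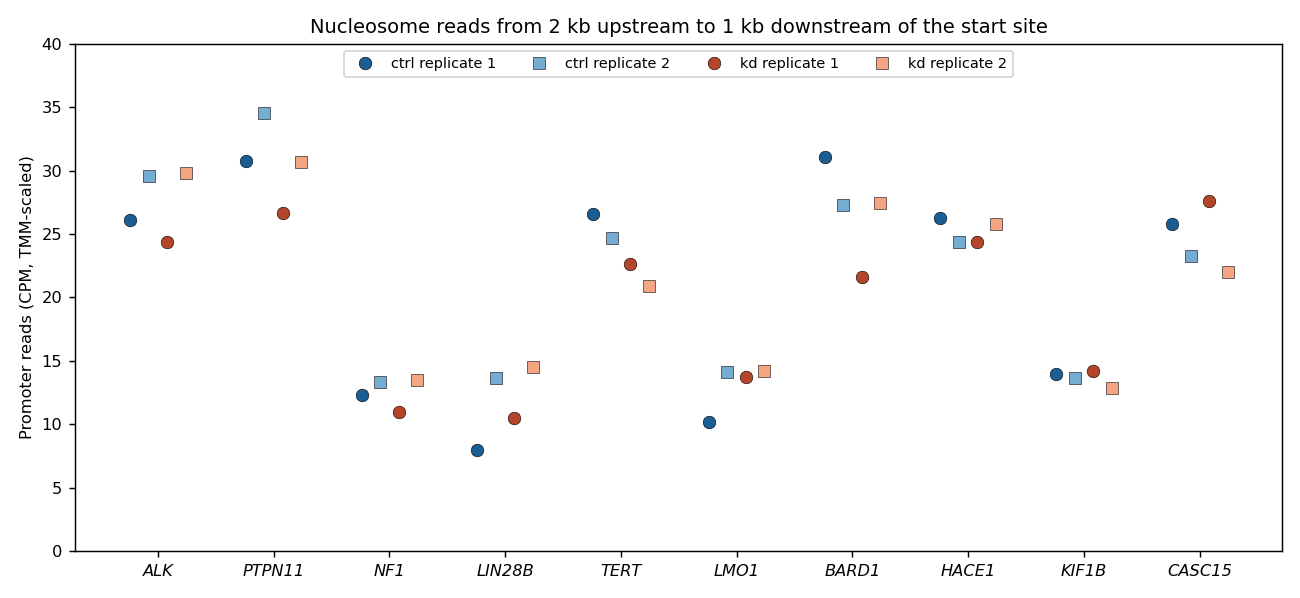
Nucleosome reads in each promoter, in CPM after TMM scaling, with 1 point per library (circles replicate 1, squares replicate 2, blue ctrl, red kd). NF1, LIN28B, LMO1 and KIF1B lie between 8.0 and 14.5 and the other 6 genes between 20.9 and 34.6, and ctrl and kd points overlap except in TERT and PTPN11.

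Genes of the same pathways were examined in lists around the members. In the RAS and MAPK list 0 of 21 promoters passed the adjusted threshold, with a median log2 change of 0.00. Its highest was RASA1, another RAS-inactivating protein, at 0.33, the only gene of the lists with an unadjusted p under 0.05, and its lowest ALKAL2, a ligand of ALK, at -0.35. In the list of the LIN28 and let-7 axis 0 of 12 passed (median 0.11), from LIN28A, the paralogue of LIN28B, at -0.37 to XPO5, which exports microRNA precursors from the nucleus, at 0.28. Among 14 telomerase and telomere proteins 0 passed (median 0.00), from TERF2IP, a shelterin subunit, at -0.25 to DKC1, a subunit of the telomerase particle, at 0.35.

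Of 8 partners of BARD1 and BRCA1, 0 passed (median 0.08), from UIMC1 at -0.21 to RBBP8, which encodes the end-resection factor CtIP, at 0.35. Of 12 relatives and partners of LMO1, 0 passed (median 0.02), from TCF4 at -0.13 to LMO2 at 0.17. Of 13 other neuroblastoma genes, 0 passed (median 0.09), from DDX4 at -0.23 to ARID1B, a subunit of the SWI/SNF remodeler, at 0.32. The start sites nearest to those of members were of the long noncoding RNAs SNHG31, at -526 bp from the BARD1 start, and MIR4733HG, at 473 bp from the NF1 start, so the promoters of these pairs share nucleosomes.

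The last question was how many reads the gene bodies carried. The level of a gene was the median over its 10-kb bins of the reads in listed nucleosomes, divided by the median autosomal bin of the library. A level rises with the number of DNA copies, with the share of nucleosomes that reach 6 reads and with GC content, so each gene was also set against autosomal bins of like GC content. On that GC-matched scale the members fell in 3 sets.

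KIF1B, NF1 and LMO1 were the lowest. The GC-matched level of NF1 was 0.510 and 0.607 in ctrl replicates 1 and 2 and 0.486 and 0.604 in kd replicates 1 and 2. That of KIF1B was 0.523, 0.594, 0.50 and 0.582, and that of LMO1 0.554, 0.572, 0.534 and 0.528 in the same order. The means of the 3 genes, 0.552, 0.550 and 0.547, did not differ beyond the spread between libraries. In NF1 and KIF1B both replicate 1 libraries were below both replicate 2 libraries, whatever the group.

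TERT, LIN28B, CASC15 and HACE1 came next, with means of 0.842, 0.852, 0.904 and 0.952. TERT had 0.861, 0.798, 0.877 and 0.831, and LIN28B 0.771, 0.901, 0.829 and 0.908, so these neighbours in the order overlapped. CASC15 had 0.895, 0.925, 0.884 and 0.914 and HACE1 0.930, 0.993, 0.911 and 0.975, which also overlapped. PTPN11, ALK and BARD1 were the highest, with means of 1.14, 1.24 and 1.25. PTPN11 had 1.10, 1.21, 1.13 and 1.12, ALK 1.30, 1.22, 1.24 and 1.21, and BARD1 1.17, 1.28, 1.27 and 1.27, and again neighbours overlapped. Between the sets there was no overlap in any library.

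GC content changed the order. Against the median autosomal bin TERT, with a GC content of 58.2%, had a mean level of 1.25 over the 4 libraries and LMO1, at 51.2% GC, had 0.759, higher than NF1 at 0.502 and KIF1B at 0.616. BARD1, at 36.96% GC, had 1.09 on that scale and ALK 1.44. NF1 was the lowest on the unmatched scale, and 3.49% of the 10690 autosomal genes of at least 40 kb in that comparison were lower. Bins of NF1 held 24.6 and 37.8 listed nucleosomes in ctrl replicates 1 and 2 and 25.8 and 38.1 in kd replicates 1 and 2, with 9.31, 12.2, 9.0 and 12 reads each. Bins of ALK held 42.9, 45.0, 43.1 and 44.8 nucleosomes with 17.5, 26.3, 16.8 and 25.5 reads each, so that NF1 had both fewer listed nucleosomes and fewer reads in each.

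**Figure D3:**
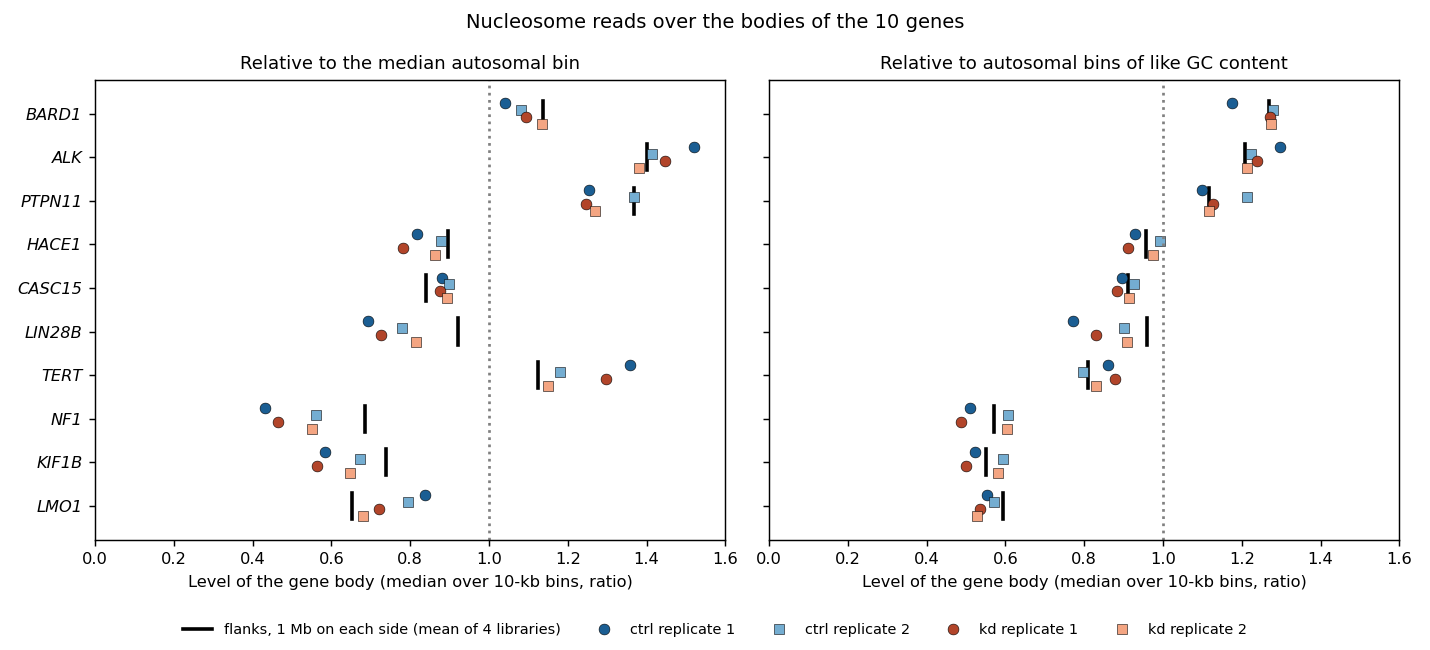
Level of each gene body in each library (circles replicate 1, squares replicate 2, blue ctrl, red kd) and the mean level of the flanks up to 1 Mb on each side (black bar), left as a ratio to the median autosomal bin and right as a ratio to bins of like GC content. On the right KIF1B, NF1 and LMO1 lie between 0.486 and 0.607 and PTPN11, ALK and BARD1 between 1.10 and 1.30.

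On the GC-matched scale the low and high levels were shared with the sequence around the genes. Within 1 Mb on each side the GC-matched level was 0.572 around NF1, 0.552 around KIF1B and 0.595 around LMO1, and 1.21 around ALK and 1.27 around BARD1. Ratios of gene to flank were 0.966, 0.997 and 0.920 in the first 3 and 1.03 and 0.985 in the last 2. Without GC matching the ratios were 0.732, 0.834 and 1.16 in the first 3 and 1.03 and 0.955 in the last 2. In NF1 0.931% of 150-bp tiles from the gene body mapped ambiguously, and on the 28 of 29 bins with few such tiles its level against the median bin was 0.499.

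Each of these genes departed from the median of its own chromosome. KIF1B was at 0.501 times the GC-matched level of chromosome 1, NF1 at 0.507 times that of chromosome 17 and LMO1 at 0.533 times that of chromosome 11. ALK and BARD1 were at 1.94 and 1.95 times that of chromosome 2, whose median was 0.642. PTPN11, TERT, LIN28B, CASC15 and HACE1 were between 0.903 and 1.05 times their chromosomes.

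The stretches of like level were long. From the start of NF1 the 1-Mb windows stayed within 0.2 of the level of the gene for 2 windows downstream, and the next one rose to 1.21. Upstream they did so for all 26 windows with a value, which lay on both sides of 3 windows that had too few bins with reads to be measured. From KIF1B they did so for 8 windows upstream, up to a window at 0.813, and 87 downstream, up to a window at 1.32. From LMO1 the like stretch held all 8 windows downstream. Upstream it held 54, again with 3 windows passed over, up to a window at 1.11. From ALK it held 18 windows upstream and 28 downstream, and both stretches ended at windows of 0.565 and 0.532. Window values depended on where the windows began. The highest window of chromosome 2 was 35.7 when counted from BARD1 and 1.81 when counted from ALK. A stretch of like windows can therefore hold narrower blocks of another level.

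**Figure D4:**
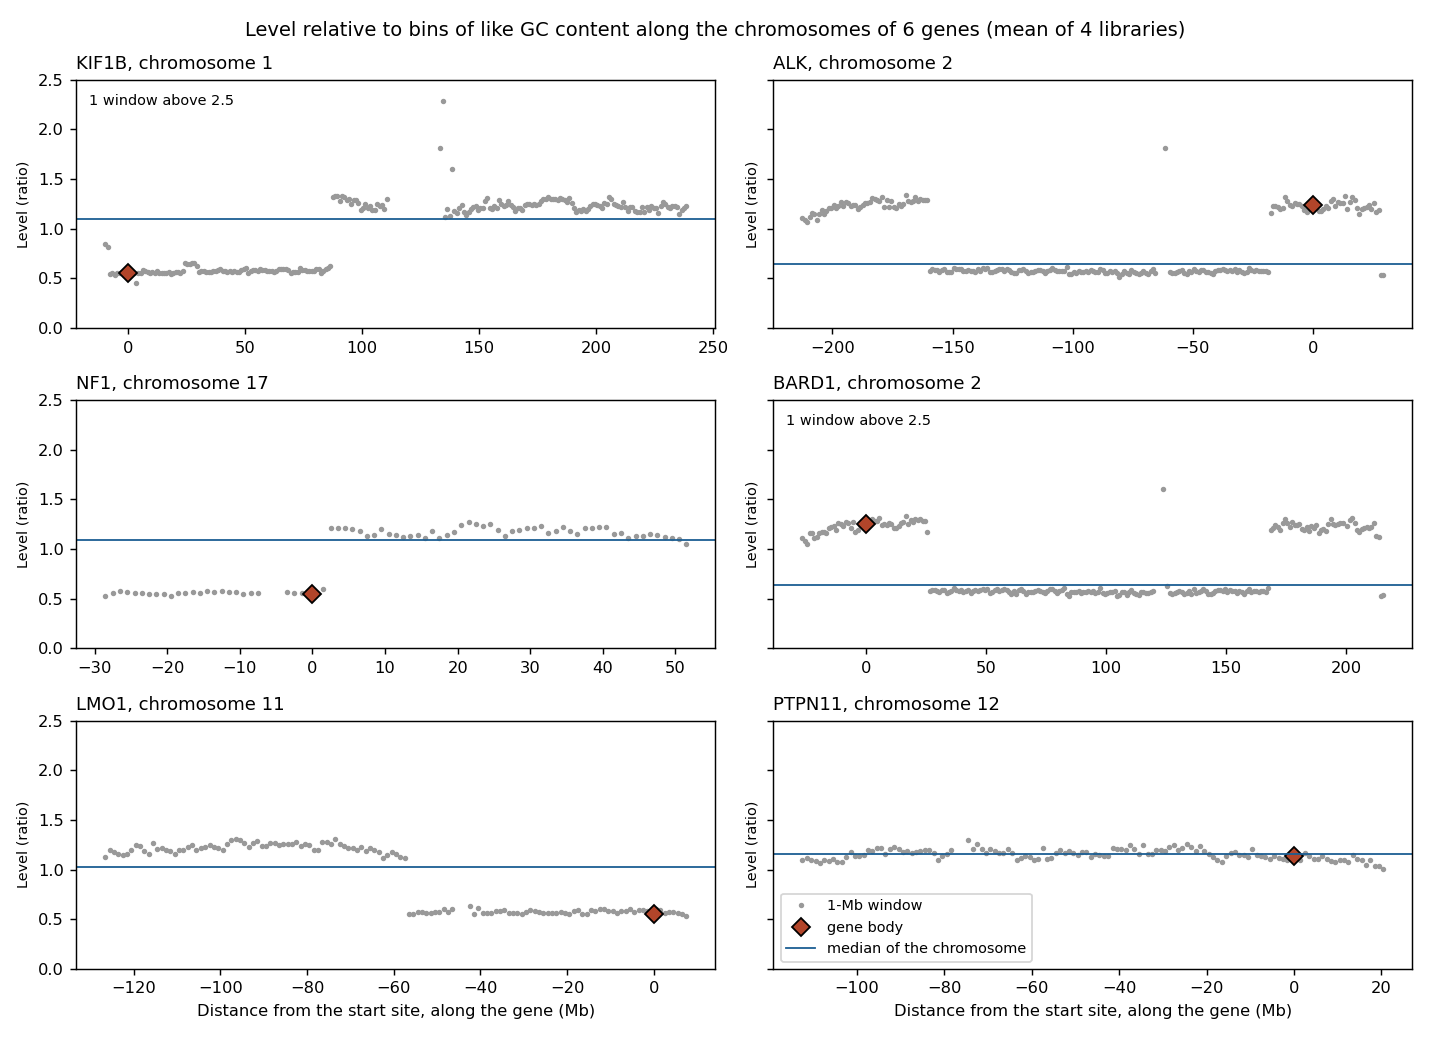
GC-matched level in 1-Mb windows (grey, mean of 4 libraries) by distance from the start site along the gene in Mb, with the gene body (diamond) and the median of the chromosome (blue line). KIF1B, NF1 and LMO1 sit on long stretches near 0.55, ALK and BARD1 on stretches above a chromosome median of 0.642, and NF1 lies 2 windows from a rise to 1.21.

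On the GC-matched scale LIN28B had the lowest ratio of gene to flank among the members, followed by LMO1. Without GC matching NF1 had the lowest, at 0.732, then LIN28B, at 0.819, and LMO1 had the highest, at 1.16. The GC-matched level of LIN28B, 0.852, was 0.888 times that of its flanks. Of the genes of at least 40 kb, 2.58% had a lower GC-matched ratio, against 7.05% for LMO1. The 3 bins at the 5′ end of LIN28B, from the most upstream annotated start to the canonical one, had GC-matched levels of 0.716, 0.701 and 0.662, against 0.96 over the flanks. In the bin with the canonical start the value was 0.566 and 0.743 in ctrl replicates 1 and 2 and 0.544 and 0.794 in kd replicates 1 and 2, lower in replicate 1 than in replicate 2 of either group, with the groups overlapping.

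A lower level in the bin with the start site was common to the members. All 10 had a lower GC-matched level there than over the rest of the gene, with ratios of 0.752 in BARD1, 0.763 in LIN28B, 0.767 in KIF1B and 0.779 in ALK, up to 0.894 in LMO1 and 0.924 in TERT. Among the 10897 autosomal genes of at least 40 kb in this comparison, a larger set than the 10690 above, 83.5% had a ratio below 1. The median was 0.896. This count of members is therefore read against a pattern common to long genes.

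**Figure D5:**
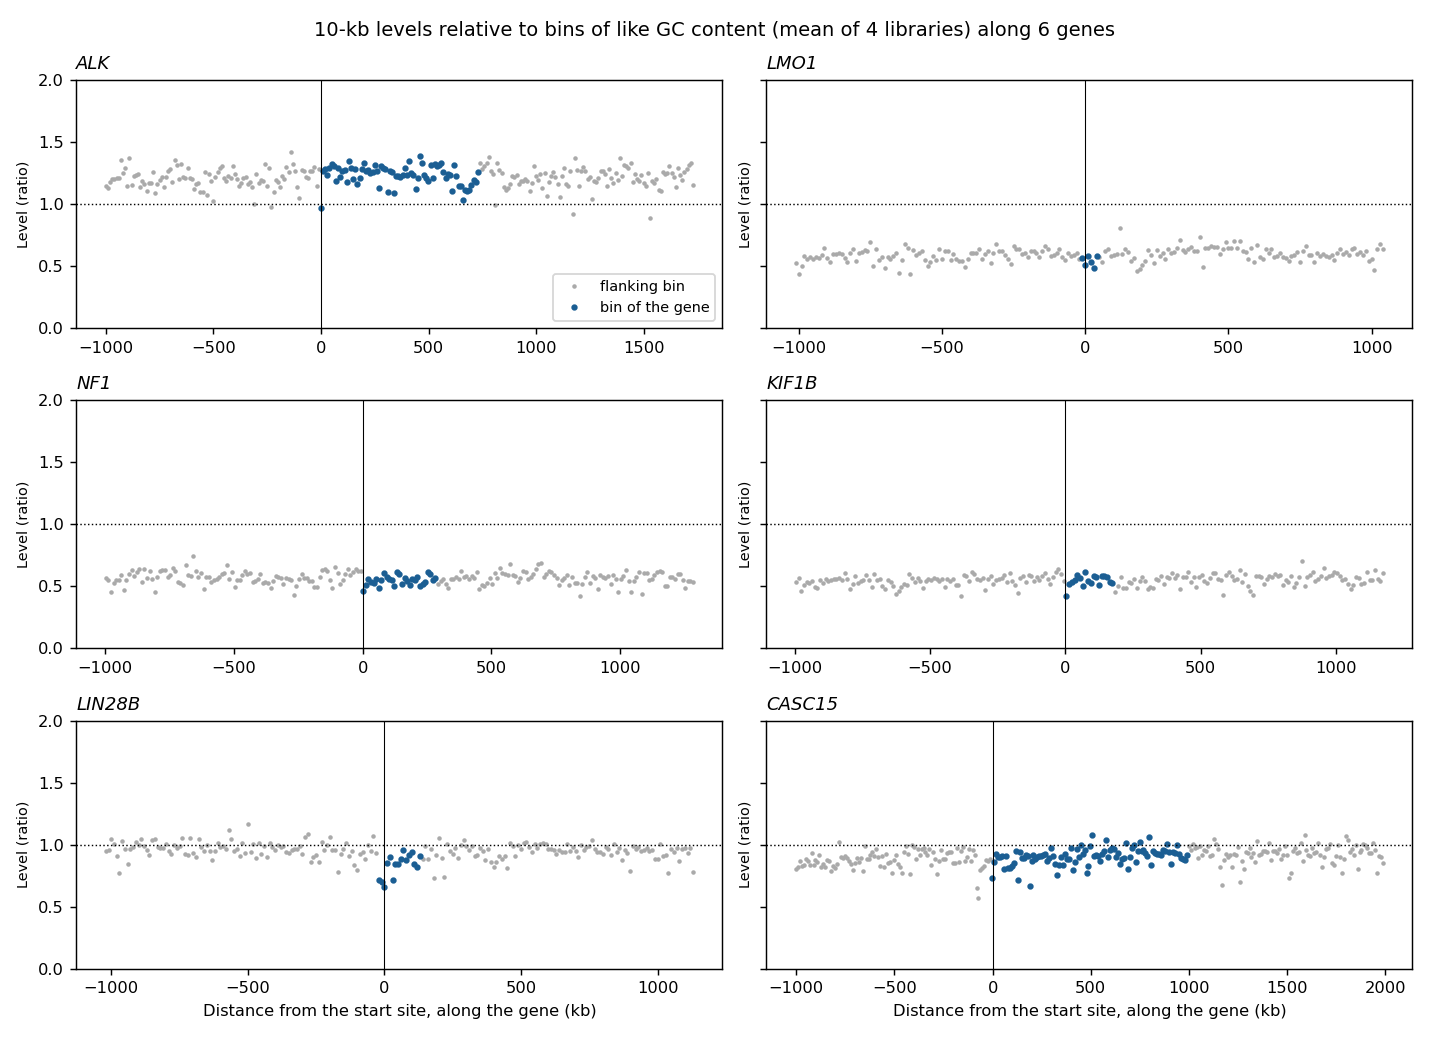
GC-matched level of 10-kb bins (mean of 4 libraries) along 6 genes (blue) and up to 1 Mb on each side (grey), by distance from the start site along the gene in kb. The bins of NF1, KIF1B and LMO1 lie with their flanks near 0.55, and the first bins of LIN28B, near 0.7, lie below flanks of 0.96.

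No difference in the level of the members between kd and ctrl could be shown. Their mean level was 0.942 and 0.962 in ctrl replicates 1 and 2 and 0.921 and 0.938 in kd replicates 1 and 2, a difference of -0.0223 (two-sided exact permutation test over 6 arrangements, p = 0.333, the smallest possible, so no difference could pass 0.05). On the GC-matched scale the difference was -0.00582. On the unmatched scale LMO1 showed the largest, with 0.838 and 0.795 in ctrl and 0.721 and 0.681 in kd, a difference of -0.115 that shrank to -0.0317 against bins of like GC. BARD1 was 0.0532 higher in kd, at 1.09 and 1.13 against 1.04 and 1.08 in ctrl. Matched for GC, BARD1 had the largest difference, at 0.0454, and TERT turned from -0.0468 to 0.0244.

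Of the 281 10-kb bins of the members, 0 passed the adjusted threshold in edgeR, as did 0% of 284468 bins genome-wide. Without adjustment 7 of the 281 had p under 0.05, all lower in kd, against 9391 of all bins, of which 4332 were higher and 5059 lower. The direction was not kept in every setting. With the replicate number as a block 22 had p under 0.05 (6 higher, 16 lower). In that setting 25577 of all bins did (11017 higher, 14560 lower). Without ctrl replicate 1 the median log2 change of the bins turned positive in TERT (0.04) and negative in LIN28B, NF1, CASC15 and HACE1. The 7 were 2 bins each of ALK and LMO1 and 1 each of TERT, PTPN11 and CASC15. The median log2 change of the bins was -0.17 in LMO1, from 6 bins, and between -0.08 and 0.07 in the other 9 genes.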

How the data were processed

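MNase-seq was analysed from 4 libraries of BE(2)C cells, 2 ctrl and 2 kd, grouped by the sample titles. The submitters' processing notes name CASAVA 1.9, Trim Galore 0.4.4, Bowtie2 2.2.4 and hg19. The authors kept proper pairs of high mapping quality, removed PCR duplicates, took pair midpoints as dyads and called nucleosomes per library with Genetrack, dropping those under 6 reads. In the deposited lists the counts of midpoints per nucleosome are whole numbers. The other deposited values are the start and end of each nucleosome and its fuzziness in bp. Sums therefore leave out reads outside listed nucleosomes, and their totals are not the depth of the libraries.

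The members and the lists of related genes were chosen with earlier results of these data known. All members were named with values. Of a list, the genes with the highest and lowest log2 change were named, and any past the adjusted threshold. Neighbours with a start site within 2 kb and the most and least alike pair of members were also named. Of 14 other neuroblastoma genes listed, 13 were matched by name. Start sites were those of canonical GENCODE transcripts on GRCh37. Reads were summed by dyad per promoter and per 10-kb bin. Counts with a mean of at least 10 reads were tested with edgeR 4.0.16 (TMM, quasi-likelihood, Benjamini-Hochberg over all features, called at 0.05), the group being the only term. DESeq2 1.42.0 was an alternative. The test was checked on simulated data. GC-matched levels used 50 groups of autosomal bins of like GC. Ambiguity was the share of 150-bp tiles, every 100 bp, that minimap2 2.31 mapped to GRCh37 with a quality of at most 10. Exact permutation tests used SciPy 1.17.1, and with 2 libraries per group their smallest p is 0.333. Alternatives were other windows, tools, filters, bins, GC correction, the replicate block and leaving out each library.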

Additional observations from a re-analysis of the deposited data

How the results depend on the processing

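No member promoter and no gene of the 6 lists was called in any setting tried. Promoters genome-wide gave 0 calls in every alternative but 1, from 0 to 1 on leaving out each library, the 1 being without kd replicate 2. Bins gave 0 calls with DESeq2 and without a filter, 1 with GC correction, and 0 to 4 on leaving out each library (4 without ctrl replicate 1, 2 without kd replicate 2, 1 without kd replicate 1). With the replicate number as a block, bins gave 88 calls (14 higher, 74 lower in kd), and 2 with the block and GC correction, none of them in a member. Promoters gave 0 with the block. Same-numbered libraries correlated in their deviations (r = 0.29 over promoters, 0.47 over bins), but with 2 pairs the numbers do not establish a pairing. In blocked form the differences were 0.154 bp in fuzziness, -1.0 bp in dyad distance and -0.0223 in level.

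Windows empty in all libraries fell from 4 to 2 with 50% of the nucleosome inside, with the dyad inside and with the most upstream start site. Those held in all libraries rose from 2 to 4 with 50% inside and with the dyad inside. At the most upstream start of LIN28B the window was held in both ctrl libraries and empty in both kd libraries. At canonical starts 2.75% of all genes showed that pattern, and its share at the most upstream starts was not counted. Leaving out each library gave 4 to 5 empty and 2 to 3 held, -1.65 to 1.96 bp in fuzziness, -2.75 to 4.0 bp in dyad distance and -0.0326 to -0.0119 in level. Matched for GC, the level difference was -0.00582.

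Log2 changes of promoters that turned sign were -0.16 in LIN28B and 0.0424 in BARD1 in the start-site window alone, 0.0339 in HACE1 with 2 kb on each side, and -0.0017 in CASC15 with the block. On leaving out each library they ran from -0.20 to 0.0886 in ALK, -0.11 to 0.67 in LIN28B, -0.0172 to 0.45 in LMO1, -0.23 to 0.0641 in NF1, -0.15 to 0.18 in CASC15, -0.0635 to 0.0419 in HACE1 and -0.10 to 0.0384 in KIF1B. The cause was not tested. TERT, BARD1 and PTPN11 were lower in kd on leaving out any library, from -0.29 to -0.17, -0.43 to -0.0794 and -0.30 to -0.091. TERT and PTPN11 were the members whose ctrl and kd values did not overlap, as was the case in 30.6% of all promoters. The share of all promoters that kept their sign in this way was not counted. The level on bins with few ambiguous tiles was an alternative added after the data were seen.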
